A study of Oryza sativa with 8 samples.

Results

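The genes described here are those whose transcripts were lower with salt in the leaf blades and also in the leaf sheaths of Oryza sativa, rice. They were chosen by direction alone: a gene had to be in both of the authors' deposited tables of changed genes, with a lower mean TPM (transcript abundance per gene length, scaled to the library) in salt-treated blades and a lower mean level in salt-treated sheaths. Of 5827 genes listed in either tissue, 794 were in both tables. A total of 18 of these were set aside by identifier, most of them at the duplicated starts of chromosomes 11 and 12, and 46 of the remaining 776, or 5.93%, were lower in both. All tests of salt against control behind these genes are the authors' own, and they chose the members, so directions and fold changes below are a description.

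There were 8 samples in all, 2 for each tissue with salt and 2 for each tissue kept as control. Plants were grown in nutrient solution, and the salt groups received 100 mM NaCl for 24 h. The series text gives SZK, a Japanese landrace, as the plant whose transcripts were profiled, while the sample labels state no variety, plant age, genotype or transgene. Whether replicate samples are separate plants is not stated, so the authors' p-values may measure only technical spread. Only group means are in the tables, so every level below is an authors' mean and whether single samples overlap cannot be seen. In tissue of many cell types, fewer cells of a type and less RNA per cell cannot be told apart.

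As background, grasses take up and move iron with small chelators. Nicotianamine carries iron and other metals inside the plant, and nicotianamine aminotransferase turns it into the precursor of mugineic acids, the phytosiderophores that grasses release to bind ferric iron. Transporters of the YSL family move metals bound to these chelators, and in rice several of these genes are known to be raised when iron is short. Gibberellin promotes leaf growth by having its repressor, the DELLA protein SLR1, destroyed, which needs the F-box protein GID2.

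In the authors' deposited table, the log2 fold changes listed for the 46 genes ran from -5.11 to -0.22 in blades, with a median of -1.17. In sheaths they ran from -2.17 to -0.55, with a median of -0.83. The listed sheath fold is a log2 ratio with 1 added to each level, which shrinks the change of genes at low levels. Statistic times standard error, the sheath estimate to which the deposited standard error belongs, ran from -4.29 to -0.52, also with a median of -0.83. It was at or below -2 for 4 members, against 1 member by the listed sheath fold and 11 by the listed blade fold. The median listed fold over all genes lower in a table was -0.65 for 2223 blade genes and -0.89 for 1087 sheath genes, and over all genes of a table it was 0.27 in blades and -0.65 in sheaths. A fall of at least 1 on the log2 scale was listed for 24 members in blades and for 13 in sheaths. Falls of this size were listed for 12.5% of all genes in the blade table and 17.3% of all genes in the sheath table, and for 26.0% and 31.8% of the lower genes only. Since the members were chosen on these same contrasts, nothing is read from those shares.

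By listed folds, a change of -1 or lower on the log2 scale was reached by 10 members in both tissues, 14 in blades only, 3 in sheaths only and 19 in neither. With statistic times standard error in place of the listed sheath fold, 5 of the 14 also fell by at least 1 in sheaths, which makes 15 in both. The tables use different fold estimates and thresholds. The median standard error of the members was 0.17 in sheaths, with a range from 0.132 to 1.1. No tissue difference was tested, because no value per sample was at hand. By listed folds the blade fall was the larger for 28 genes. Set as TPM ratio against statistic times standard error, it was the larger for 18 genes, so which tissue fell more depends on the estimate used.

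**Figure D1:**
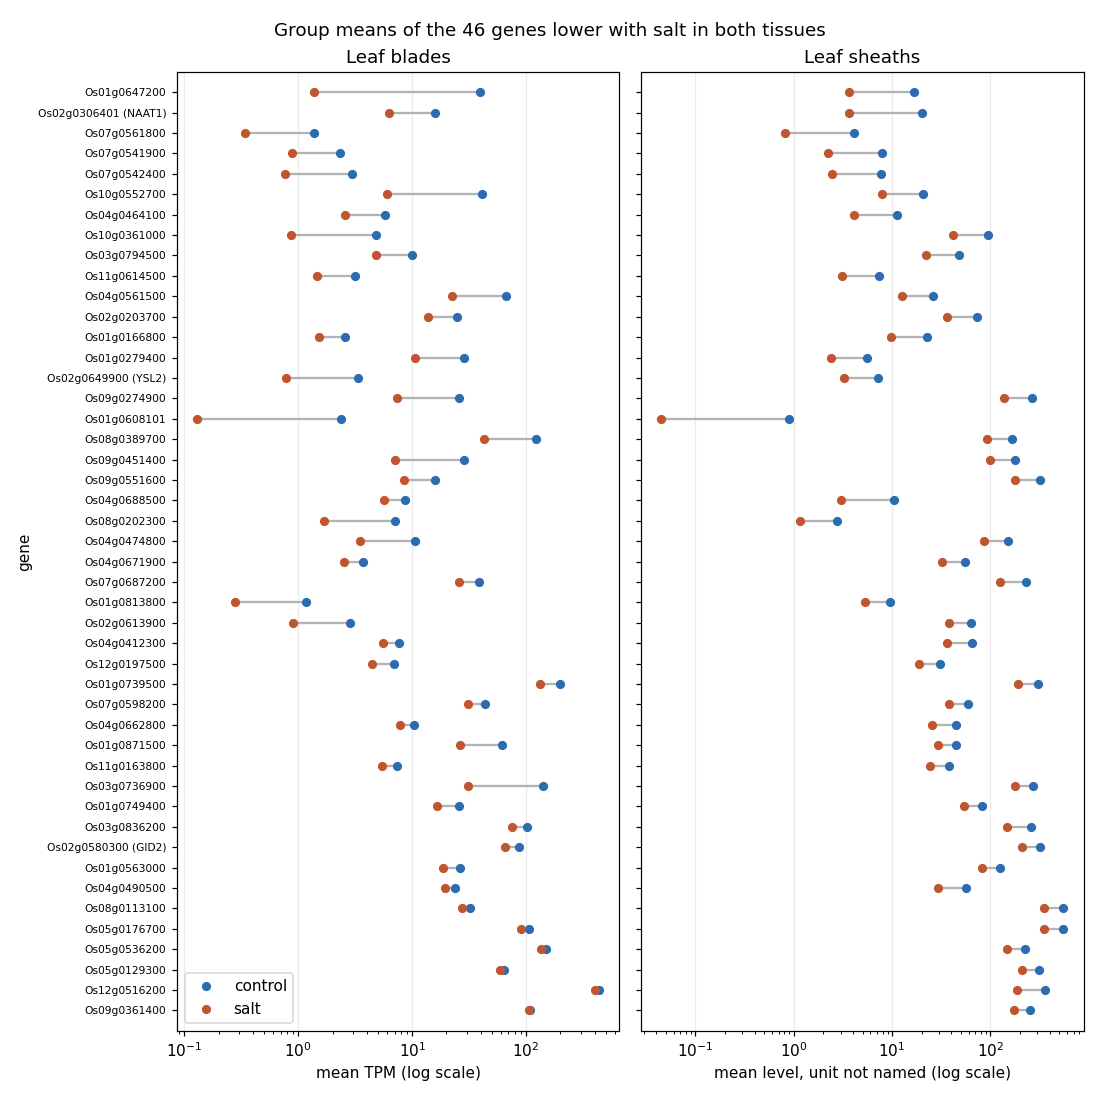
Authors' group means of the 46 genes in control (blue) and salt (orange) samples, with blade TPM on the left and sheath level on the right, both on log axes, ordered by listed folds with the largest fall in the less affected tissue at the top. Every orange point lies left of its blue point, which is how the genes were chosen, and the length of the grey line is the fall, longest in blades for Os01g0647200.

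Os01g0647200 had the largest listed blade fall of the members and, by listed folds, the largest fall in the less affected tissue. With statistic times standard error for sheaths, Os01g0608101 came first in that order, at -4.29, and Os07g0561800 second, at -2.21, ahead of Os01g0647200 at -2.18. The mean TPM of Os01g0647200 in blades was 39.2 in control and 1.38 in salt samples, and its mean level in sheaths was 16.7 and 3.65. Salt samples thus held 3.51% of the control TPM in blades and 21.9% of the control level in sheaths. The authors' deposited table listed it at -5.11 on the log2 scale with q = 6.2e-167 in blades and -1.93 with adjusted p = 1.1e-15 in sheaths. The blade fall rested on means of 1567 and 49.5 reads, and its 95% counting interval on the log2 scale ran from -5.42 to -4.82. In sheaths, statistic times standard error was -2.18, its deposited standard error being 0.25. Neither the files nor the reference table pair this identifier with a name.

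The second member by listed folds was NAAT1 (Os02g0306401), the nicotianamine aminotransferase gene of mugineic acid synthesis. Its mean TPM in blades was 15.7 in control and 6.27 in salt samples, and its mean level in sheaths was 19.9 and 3.66. NAAT1 was thus the member with the lowest sheath fold that the authors' deposited table listed, -2.17 with adjusted p = 6.6e-17. Statistic times standard error was -2.41 in sheaths, with a standard error of 0.267. In blades the authors' deposited table gave -1.51 with q = 1.9e-13, from means of 382 and 146.5 reads, and the counting interval ran from -1.71 to -1.31. NAAT1 retained 39.8% of its control TPM in blades and 18.3% of its control level in sheaths.

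YSL2 (Os02g0649900), a transporter of iron and manganese bound to nicotianamine, was the other member with a role in iron movement. Its mean TPM in blades went from 3.32 in control to 0.775 in salt samples, and its mean level in sheaths from 7.21 to 3.23. These are low levels in both tissues, with means of 116 and 26.5 reads in blades. In the authors' deposited table it stood at -2.27 on the log2 scale with q = 1.9e-07 in blades and at -0.96 with adjusted p = 0.003 in sheaths. The blade counting interval ran from -2.72 to -1.82, and statistic times standard error in sheaths was -1.14, with a standard error of 0.304. The order of the pair was thus opposite in the 2 tissues by these estimates: YSL2 had the lower blade value and NAAT1 the lower sheath value.

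The list of 30 genes of iron and zinc handling, to which both belong, had 13 genes in the blade table, 11 of them lower and 2 higher, against 48.1% lower over all genes of that table. Its median listed log2 fold change in blades was -0.97. Among genes listed for sheaths were 3 of them, all 3 lower, with a median of -0.96. Over all genes there, 54.4% were lower. NAAT1 and YSL2 were chosen for being lower and count among the lower genes of both tissues. Nothing is therefore read from these shares. IRT1, an iron transporter best known from roots, had a mean TPM of 1.15 in control and 0.14 in salt blades, which the authors' deposited table lists as -3.23 on the log2 scale and which rests on means of 26 and 3 reads. The metal transporter genes NRAMP1 and ZIP4 were listed at -1.84 and -1.37 in the authors' deposited table, and VIT1, which loads iron into vacuoles, at -1.16. Smaller blade falls were listed there too, among them ZIP8 at -0.63, IDEF1 at -0.44 and NAS3 at -0.40. The 2 listed genes that were higher in blades were VIT2, also a vacuolar iron transporter, at 0.87, and YSL16 at 0.43 in the authors' deposited table. NRAMP5, a manganese transporter, was the third listed sheath gene, at -0.92 in the authors' deposited table, with a level of 19.2 in control and 9.67 in salt samples and a standard error of 0.186. NAAT1 and YSL2 were the only genes of this list in both tables. The list was written with the sheath value of NAAT1 already known, and its genes outside a table have no value here.

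**Figure D2:**
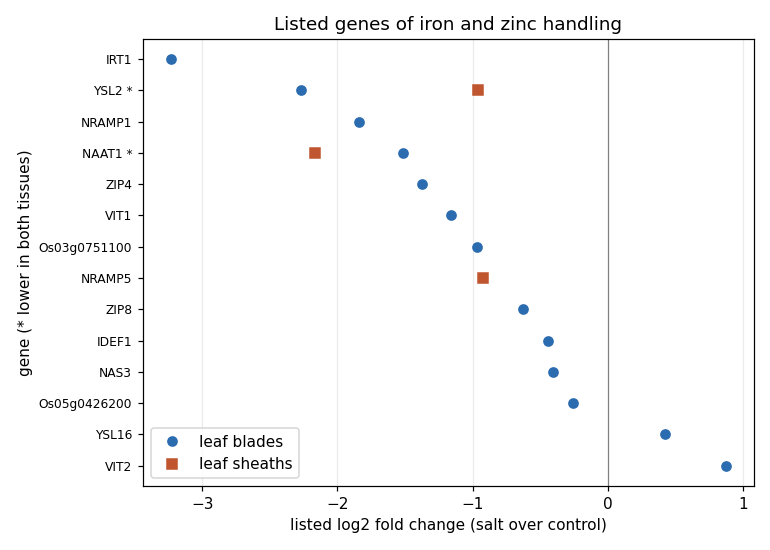
Listed log2 fold changes (salt over control) of the 14 genes of iron and zinc handling found in either table, for blades (blue circles) and sheaths (orange squares), with stars at NAAT1 and YSL2, which were in both. Points left of 0 are lower with salt: 11 of 13 in blades and 3 of 3 in sheaths. NAAT1 and YSL2 are among these in both tissues by the rule that chose them.

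GID2 (Os02g0580300), the F-box gene of gibberellin signalling, was abundant and fell modestly. Its mean TPM in blades was 86.3 in control and 65.1 in salt samples, and its mean level in sheaths was 317 and 207. It was listed at -0.56 with q = 4.8e-09 in blades and -0.61 with adjusted p = 6.4e-04 in sheaths in the authors' deposited table, with a sheath standard error of 0.132. Of the 17 gibberellin genes on the list, 7 were in the blade table, 5 of them lower and 2 higher. Over all genes of that table, 48.1% were lower. GID2, chosen for being lower, is one of the 5, and it alone was in the sheath table. Among the lower genes were 3 named genes of gibberellin synthesis, CPS1 at -0.99, KO2 at -0.84 and KAO at -1.28 in the authors' deposited table for blades. GA20OX2, a later step of synthesis, was higher there, at 0.93 in the authors' deposited table. The other higher gene was Os01g0757200, listed there at 2.48, from means of 16 and 97 reads. The remaining lower gene was Os03g0856700, listed at -0.999. Neither had a name that passed the name check, so both are given by identifier. No order by step of synthesis is therefore read from this list.

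The fourth member on a pathway list was Os09g0451400, entered among 14 ethylene genes under a name that the reference table did not hold, so it is given by identifier. It had 28.5 TPM in control and 7.1 TPM in salt blades, and a level of 176 and 98.4 in sheaths. The authors' deposited table has it at -2.19 in blades and -0.83 in sheaths on the log2 scale. Its blade reads, at means of 658 and 156, were not means of 2 whole numbers, so they were estimated and may be shared with similar genes. Of the ethylene list, 5 genes were in the blade table, 3 lower and 2 higher. That share is near the 48.1% lower over that whole table. Os09g0451400, chosen for being lower, is one of the 3, and it alone was in the sheath table. The ethylene receptor genes ETR2 and ETR3 were listed at -0.62 and -0.76 and the receptor gene ERS1 at 0.38 in the authors' deposited table for blades.

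None of the other 22 lists had a gene that was lower in both tissues. Of 28 genes of the light reactions, 24 were in the blade table and all 24 lower, while 7 were in the sheath table and all 7 higher. These were mostly different genes: only Os02g0197600, Os12g0420400, PETC and Os08g0104600 were in both tables. Their blade TPM ratios were small, at -0.06, -0.05, -0.03 and -0.26 on the log2 scale. The median listed blade fold of the list was -0.43. The cell cycle list had no gene in the blade table and 12 of 14 genes in the sheath table, all 12 lower. All 5 listed jasmonate genes were lower in sheaths, whereas 2 were lower and 3 higher in blades, with none in both tables. Over all genes of a table, 48.1% were lower in blades and 54.4% in sheaths, so the blade split of the jasmonate genes was near that of the table. The 46 genes therefore include no gene of photosynthesis, the cell cycle or jasmonate on these lists.

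Os07g0541900 and Os07g0542400 were 500 apart by locus number, which runs along the chromosome, and were the only pair of members within 2000 locus numbers. Other loci may lie between them. Os07g0541900 had 2.31 TPM in control and 0.875 TPM in salt blades, and a level of 7.88 and 2.21 in sheaths. Os07g0542400 had 2.95 and 0.77 TPM in blades and a level of 7.7 and 2.47 in sheaths. The pair were alike in level and in fall. In the authors' deposited table, Os07g0541900 was listed at -1.59 in blades and -1.47 in sheaths, and Os07g0542400 at -2.13 and -1.33. Statistic times standard error in sheaths was -1.8 and -1.61, with standard errors of 0.314 and 0.264, so the sheath values differed by less than either error. The blade counting intervals, from -2.02 to -1.17 and from -2.61 to -1.68, overlapped. Os07g0561800, on the same chromosome, was lower still, at 1.39 and 0.34 TPM and means of 23 and 5 reads in blades. Its level in sheaths was 4.13 and 0.816, and statistic times standard error there was -2.21, with a standard error of 0.527.

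The remaining members with a fall of at least 1 on the log2 scale in both tissues were Os10g0552700, Os10g0361000, Os03g0794500, Os11g0614500 and Os04g0464100. Blade TPM and sheath level are not on a common scale, so the tissue with more transcript is not read from them. Os10g0552700 had 41.1 TPM in control and 6.06 TPM in salt blades, and a level of 20.7 and 7.96 in sheaths. It was listed at -2.95 in blades and -1.27 in sheaths in the authors' deposited table. Os10g0361000 had 4.8 TPM in control and 0.865 TPM in salt blades, from means of 46.5 and 8 reads, and a level of 94.5 and 41.5 in sheaths. This gene thus had few reads in blades, where its counting interval ran from -3.53 to -1.89, and a sheath value with a small error, -1.17 with a standard error of 0.184. Os03g0794500 and Os11g0614500 were listed at -1.24 and -1.31 in blades and -1.08 and -1.05 in sheaths in the authors' deposited table. Os04g0464100, at means of 58.5 and 25.5 reads in blades, was listed at -1.33 in blades and -1.25 in sheaths. In all 10 genes the highest blade q was 0.0228 and the highest sheath adjusted p 0.003 in the authors' deposited table.

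Os01g0608101 showed how far the choice of sheath estimate matters. It had 2.36 TPM in control and 0.13 TPM in salt blades, and a level of 0.904 and 0.045 in sheaths, the one member below a level of 1 there. Salt samples held 5.51% of the control TPM in blades and 4.98% of the control level in sheaths. Its listed sheath fold was only -0.87, because 1 is added to each level, but statistic times standard error from the authors' deposited table was -4.29 ± 1.1 (standard error), the lowest of the 46. In blades it was listed at -4.33, second to Os01g0647200, from estimated means of 73.7 and 4 reads, with a counting interval from -5.57 to -3.31.

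**Figure D3:**
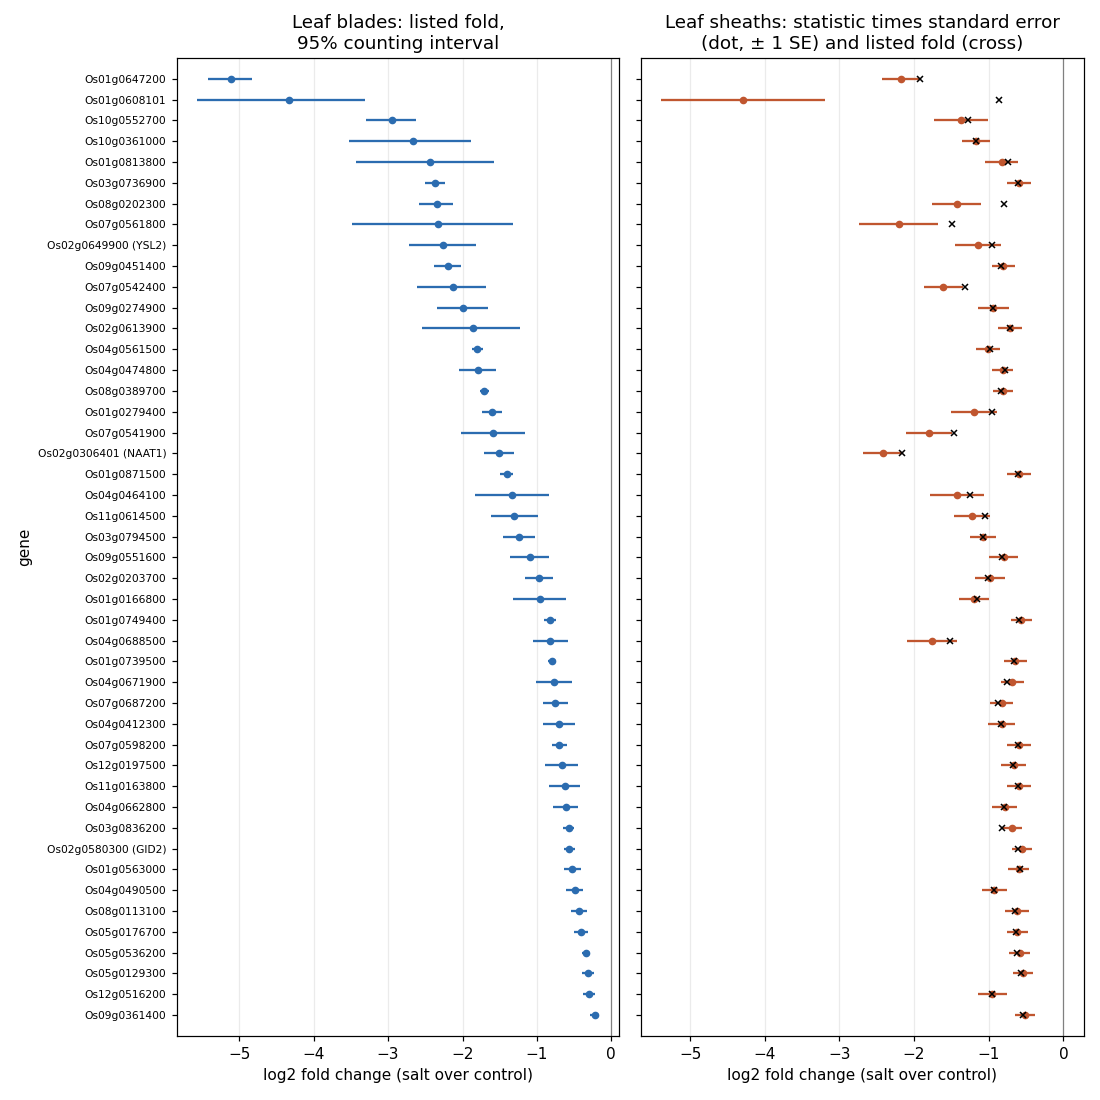
Size and error of each fall, with genes ordered by listed blade fold. On the left are listed blade log2 fold changes with 95% counting intervals, and on the right the sheath statistic times standard error (dot) with 1 standard error to each side and the listed sheath fold (cross). Dot and cross lie apart mainly for Os01g0608101, at -4.29 and -0.87, and for other genes at low sheath levels.

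The 14 members with a fall of at least 1 on the log2 scale in blades only, by listed folds, were listed there at -4.33 to -1.1 and in sheaths at -0.99 to -0.60 in the authors' deposited table. In sheaths, statistic times standard error for these 14 ran from -4.29 to -0.59, and for 5 of them it was also -1 or lower: Os01g0608101, Os08g0202300 at -1.43, Os01g0279400 at -1.19, YSL2 at -1.14 and Os04g0561500 at -1.01. Os03g0736900 had 139.5 TPM in control and 31.0 TPM in salt blades, and a level of 273 and 179 in sheaths. It was thus abundant in blades and held 22.2% of its control TPM there, against 65.7% of its control level in sheaths. Its listed values were -2.37 with q = 5.8e-69 in blades and -0.60 with adjusted p = 0.004 in sheaths in the authors' deposited table. Os08g0389700 had 122 and 42.9 TPM in blades and a level of 165 and 91.6 in sheaths. Its blade fall, listed at -1.71, rested on means of 3879 and 1299 reads, the most of any member, so its counting interval was narrow, from -1.77 to -1.64. Os01g0813800 was at the other end, with means of 32.5 and 6.5 reads and an interval from -3.43 to -1.58 around a listed value of -2.44.

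By listed folds, the 3 members with such a fall in sheaths only were Os04g0688500, Os01g0166800 and Os02g0203700. Os04g0688500 had a level of 10.6 in control and 3.01 in salt sheaths and 8.73 and 5.67 TPM in blades. In the authors' deposited table it was listed at -1.53 in sheaths with adjusted p = 6.0e-06 and at -0.82 in blades with q = 0.0028. Os01g0166800 was listed at -1.15 in sheaths and -0.96 in blades, and Os02g0203700 at -1.0 and -0.97, both close to the limit in blades.

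The 19 members with a smaller fall in both tissues included the most abundant member of each tissue. The authors' deposited table listed them at -0.82 to -0.22 in blades and -0.96 to -0.55 in sheaths. Their median control TPM in blades was 38.5, against 5.28 for the 10 genes with a fall of at least 1 in both. It was 20.85 for the 14 genes with such a fall in blades only and 8.725 for the 3 in sheaths only. Os12g0516200 was the most abundant member in blades, with 438 TPM in control and 404 TPM in salt samples, and had a level of 361 and 186 in sheaths. It was listed at -0.29 with q = 0.0175 in blades and -0.96 with adjusted p = 4.6e-05 in sheaths in the authors' deposited table. Salt blades thus held 92.1% of its control TPM and salt sheaths 51.5% of its control level. Os01g0739500 went from 199 to 131 TPM in blades and from a level of 304 to 191 in sheaths, falls to 65.7% and 63.0%. Os05g0536200 went from 149.5 to 135 TPM in blades and from a level of 224 to 146 in sheaths. Among the highest sheath levels, in a unit the header does not name, Os05g0176700 went from 551 to 354 and Os08g0113100 from 551 to 350. Their blade values were 106 and 91 TPM for Os05g0176700 and 32.2 and 27.2 TPM for Os08g0113100. Os09g0551600 had a level of 317 in control and 178 in salt sheaths and 15.8 and 8.4 TPM in blades. It is not one of the 19, being listed at -1.1 in blades in the authors' deposited table. By TPM ratio its blade value was -0.91. Salt samples held 53.3% of its control TPM in blades and 56.3% of its control level in sheaths.

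Together the 46 genes added up to 2158 TPM in control and 1440 TPM in salt blades. Their median control TPM was 24.2, against 24.1 for all lower genes of the blade table, so in blades they were neither rare nor abundant among them. In sheaths their median control level was 57.7, against 40.9 for all lower genes of the sheath table. Across the 46 genes, listed falls in blades and sheaths went together loosely (Pearson r = 0.47, Spearman rho = 0.50). With blade TPM ratio against sheath statistic times standard error, Spearman rho was 0.61. In blades, control TPM and listed fold had a Spearman rho of 0.42, so larger falls tended to sit at lower levels. In sheaths, control level and statistic times standard error had a Spearman rho of 0.71. These are descriptions over genes that share libraries and a selection rule, and genes low in reads need a large fall to be listed. A total of 4 genes were among the 10 largest listed falls in both tissues.

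**Figure D4:**
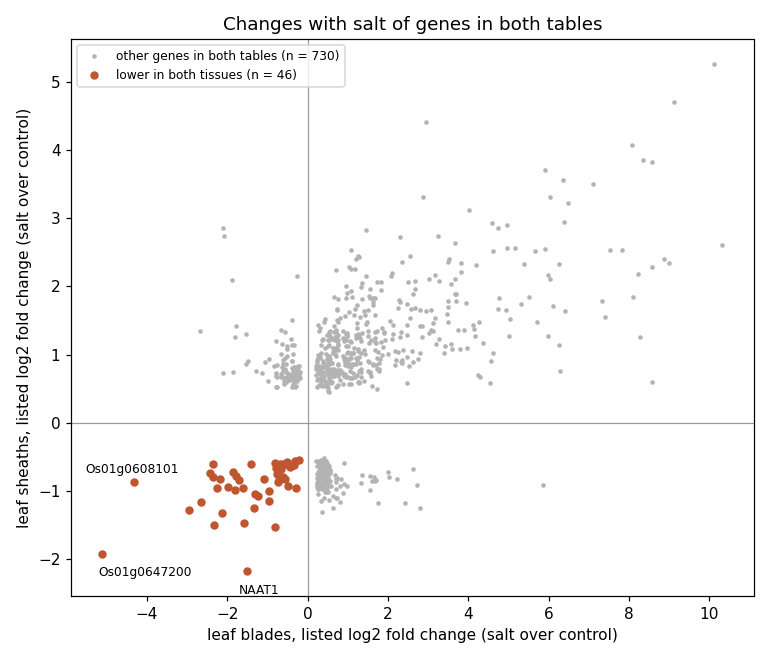
Listed log2 fold changes in blades (x axis) and sheaths (y axis) of the 776 genes in both tables, with the 46 genes lower in both in orange and the other 730 in grey. The empty bands around 0 are the thresholds of the tables. The orange points reach -5.11 in blades and -2.17 in sheaths. The listed sheath fold has 1 added to each level, and statistic times standard error reached -4.29 there. The reach along the 2 axes is therefore not compared.

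Being lower in both tissues was the least common combination among genes in both tables. Of the 776 genes, 458 were higher in both, 172 were higher in blades and lower in sheaths, and 100 were lower in blades and higher in sheaths. Of the 146 shared genes lower in blades, the 46 genes, or 31.5%, were also lower in sheaths, against 28.1% over all 776. Of the 218 lower in sheaths, 21.1% were also lower in blades, against 18.8% over all 776. These shares are near those over all shared genes, so nothing about the members is read from the overlap. As shares of all lower genes the 46 were 2.07% in blades and 4.23% in sheaths. Members were on every chromosome except chromosome 6, which held 47 of the shared genes. They were 9 of 111 shared genes on chromosome 1 and 8 of 65 on chromosome 4, against 5.93% over all 776. No pattern by chromosome was tested, and nothing is read from these counts.

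At the edge of the rule, Os09g0361400 had 109 TPM in control and 107 TPM in salt blades, a TPM ratio of only -0.03 on the log2 scale. For blades the authors' deposited table listed it at -0.22 with q = 0.0383, and it was also the smallest listed sheath fall, -0.55. Os05g0129300 and Os12g0516200 followed in blades, both with a TPM ratio of -0.12, and Os05g0129300 and Os01g0563000 in sheaths, listed at -0.56 and -0.58. Just outside, Os02g0519900, Os01g0815800 and Os04g0504800 were lower in sheaths but had blade TPM ratios of 0.12, 0.31 and 0.33. CHLH (Os03g0323200), a subunit of the enzyme that puts magnesium into chlorophyll, Os03g0125600 and Os01g0618800 were lower in blades but were each listed at 0.52 in sheaths. The counting interval of the blade fold lay wholly below 0 for all 46 genes, and for 45 when scaled to the TPM ratios. Members were chosen on these same blade means, among genes already selected by q. This outcome was therefore nearly fixed in advance, and nothing is read from it.

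Deposited q-values of the 4623 blade genes reached 0.0499 and adjusted p-values of the 1998 sheath genes reached 0.004, so a gene missing from a table is not shown to be unchanged. Reads over the listed blade genes summed to a mean of 10745825 per control sample and 9995664 per salt sample, while no depth is known for sheath samples. Members had means of 23 to 3879 reads in blade controls, 8 of them under 100. In blades the markers of photosynthetic cells that were listed fitted leaf tissue, with RBCS2 at 53569 TPM and CAB2R at 15132 TPM in control samples. The root markers IRT1 and LSI1 were listed in blades at 1.15 and 22.2 TPM in controls, both lower with salt. The shoot meristem markers OSH1, OSH15 and OSH71 were in neither table, and none of the 5 photosynthetic markers chosen for this check was in the sheath table. Other photosynthesis genes were listed there, among them PETC, a subunit of the cytochrome complex between the photosystems, at a level of 621 in control sheaths. No marker that sets sheaths apart from blades was among those chosen, so the sheath label was not checked. Any part of other cell types in these falls was not tested.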

How the data were processed

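RNA from 8 rice samples was sequenced after mRNA library preparation, per the labels' protocols. HISAT and the build mm10, a mouse build, are in the submitters' processing notes; which rice build, counter or test was used is not given in the sources used here. Both tables that the authors deposited hold selected genes with group means only. The blade table holds log2 fold changes, mean TPM, mean read counts (estimated counts where not means of 2 whole numbers, as for 3 members), mean FPKM and q-values, per the file headers. The sheath table holds a log2 fold change, an expression signal of unnamed unit, a standard error and statistic (scores), p-values and adjusted p-values, per the file headers. The columns Case1 were taken as salt.

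Computed here were member counts, medians, log2 ratios, statistic times standard error, and exact (Clopper-Pearson) 95% intervals of blade read ratios summed over 2 libraries. They were scaled by the median offset of listed folds from read ratios, -0.13, cover counting error only and were checked on simulated reads. Listed blade folds lay a median of -0.19 from TPM ratios. No new test across genes was possible, as the design foresaw.

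The members and the 25 lists were chosen with earlier results of these data known. No identifier of the 5827 was in the reference name table. Of 455 list identifiers, paired with names from general knowledge, 275 passed a check: the name was on the stated chromosome of that table (another assembly), once or within 50000 bases, and in locus-number order. Of the rest, 148 names were not in the table, 21 occurred more than once, 7 were on another chromosome and 4 were out of order. Only passing names are used, 3 of them members. Genes named by a fixed rule were all members with a checked name and the 10 with the largest fall in the less affected tissue. Also fixed were the 5 lowest folds and 5 highest control levels per tissue, 3 on each side of the rule's edge and the markers. Os09g0451400, Os01g0166800, Os02g0203700, Os08g0202300, Os01g0279400 and Os04g0561500 meet no part of this and were chosen after their values were seen. Other list genes that are not members, such as NRAMP1, ZIP4, CPS1, ETR2 and PETC, were likewise named without a fixed rule. Family keywords could not be used, since no gene descriptions were at hand, and no sequences are shown. The tools were matplotlib 3.10.9, SciPy 1.17.1, numpy 2.4.6 and pandas 2.3.3 under Python 3.11.15.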

Additional observations from a re-analysis of the deposited data

How the results depend on the processing

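The number of genes lower in both tissues was 46 by blade TPM, and also by listed fold, FPKM, read count or with at least 20 control reads. It was 45 with a sheath level of at least 1, 39 with a fall of at least 0.5 in both tissues, 38 at blade q up to 0.01 and 32 at sheath adjusted p up to 0.001. The median blade change was -1.17 as listed, -0.98 as a TPM ratio and -1.04 as a read ratio, and the median sheath change was -0.83 both as listed and as statistic times standard error. The number of genes with a fall of at least 1 on the log2 scale in both tissues was 10, and 15 by statistic times standard error. The iron and zinc, gibberellin and ethylene lists kept 2, 1 and 1 members with listed blade folds. No single gene changed direction under these alternatives. Lower blade TPM and lower sheath level were the rule that chose the members, so this outcome was nearly fixed in advance. Nothing is read from it. By TPM ratio, 22 of 46 blade values lay outside their counting interval, and by read ratio 16 did. The intervals were scaled to listed folds, which lay a median of -0.19 from TPM ratios and -0.13 from read ratios. These counts therefore include that constant offset. No paired analysis was possible because the tables hold group means, and no sample could be left out for the same reason. Genes missing from a table limit every list count.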
